A study of Mus musculus with 12 samples.

Results

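Untreated cells of the mouse melanoma line YUMM1.1 were compared with untreated cells of the mouse melanoma line B16, gene by gene, from bulk RNA-seq read counts. The comparison used 6 of the 12 libraries of the study, 3 of untreated YUMM1.1 and 3 of untreated B16. The other libraries, from the same lines given interferon-gamma (IFNG), were not used. Both lines grew in DMEM with serum and received no agent, and the labels give 48 h as their time. YUMM1.1 is known as a line from a melanoma of a mouse engineered for mutant Braf and for loss of Cdkn2a, among other alleles, in melanocytes. B16 is known as a pigmented line from a melanoma of a C57BL/6 mouse and as lacking Cdkn2a. The labels state none of these alleles, and each line stands for 1 tumour, so the lines differ in genotype and history at once. Of 55416 gene IDs in the count tables, 12850 had enough reads to be tested.

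Melanocytes arise from the neural crest, the embryonic cell population that also gives Schwann cells and other glia. The factor MITF switches on the enzymes and transporters that make melanin, while SOX10 is shared by melanocytes and glia. Melanoma cells are known to range from a pigmented state with high MITF to a poorly differentiated state with low MITF and high NGFR or AXL. The second state is often rich in matrix and growth factor genes.

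The YUMM1.1 libraries held 19145253 to 22363397 counts and the B16 libraries 2573805 to 7888257, a difference in depth of 2.43 to 8.69 times. Line and depth cannot be told apart in this design. Levels are CPM, the counts per 1000000 of the TMM-scaled library total, given per library or as mean ± SD over 3 libraries. Differences are log2 values of YUMM1.1 minus B16 with the SE of the edgeR fit, so a positive value means a higher level in YUMM1.1. A gene was called when its Benjamini-Hochberg adjusted p in edgeR's quasi-likelihood test was below 0.05 and the lines differed at least 2-fold. Mitochondrial genes gave 0.762% ± 0.298 of the counts in YUMM1.1 and 0.964% ± 0.192 in B16 (exact permutation test, two-sided, p = 0.4). Ribosomal protein genes gave 3.77% ± 0.513 in YUMM1.1 and 4.44% ± 0.228 in B16 (p = 0.1, the smallest that 3 against 3 libraries can give in the exact permutation test). YUMM1.1 library 1 stood farther from libraries 2 and 3 (chi-square per degree of freedom 45.4 and 35.4) than those did from each other (15.2), and the B16 pairs were at 1.59 to 3.42. This measure uses raw counts and can grow with depth, so it does not show which line had the closer libraries. In bulk RNA, fewer cells of a kind and less RNA per cell cannot be told apart.

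Untreated YUMM1.1 and B16 differed in a large part of their transcriptome. Of the 12850 tested genes 4939 were called (38.4%), 2577 higher in YUMM1.1 (20.1%) and 2362 lower (18.4%). Counts of called genes in the lists below are to be read beside these shares. An adjusted p below 0.05 alone was reached by 9211 genes (71.7%). The libraries of the lines did not overlap for 75.0% of all tested genes and for 99.4% of the called ones. At least 10-fold differences were fitted for 876 genes higher and 790 genes lower in YUMM1.1. A further view takes genes that were almost silent in 1 line, below 0.2 CPM, and at 5 CPM or more in the other: 252 genes were expressed in this way in YUMM1.1 and 211 in B16. Among genes at 5 CPM or more, 136 in YUMM1.1 had 0 reads in B16, and 74 in B16 had 0 reads in YUMM1.1. The libraries held 60954155 reads in all in YUMM1.1 and 15482682 in B16. With fewer reads a count of 0 is reached more easily in B16, so these counts do not rank the lines. For a line with 0 reads a floor of 3 counts over its libraries was used, which is 0.0527 CPM in YUMM1.1 and 0.181 CPM in B16. The median log2 difference over all tested genes was 0.00, and it moved by -0.20 when library totals replaced the TMM factors.

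At the Cdkn2a locus on chromosome 4, 5 of 8 tested genes were called higher in YUMM1.1, none lower and 3 not called. Cdkn2a (chr4:89274471-89294653, GRCm38) encodes a CDK4 inhibitor and the MDM2 inhibitor ARF, and it was at 6.63, 5.81 and 7.90 CPM in the YUMM1.1 libraries and at 0 in every B16 library. Its neighbour Cdkn2b (chr4:89306299-89311039), a further CDK4 and CDK6 inhibitor, was at 142, 153 and 178 CPM in YUMM1.1 and at 0 in every B16 library. Both lie above the B16 floor, Cdkn2a by at least 37.4-fold (edgeR adjusted p = 5.66e-07) and Cdkn2b by at least 870.2-fold (adjusted p = 1.86e-11). Dmrta1, the next gene with reads, had 310 reads in YUMM1.1 and 0 in B16. Other genes nearby had reads in both lines. Mtap, a methionine salvage enzyme beside Cdkn2a, was at 167, 218 and 182 CPM in YUMM1.1 and 199, 206 and 237 CPM in B16, with overlapping libraries (log2 difference -0.18 ± 0.12, adjusted p = 0.195). Klhl9 was higher in YUMM1.1 (120.2 CPM against 55.3 CPM in B16), and Focad was at 19.9 CPM in YUMM1.1 and 30.4 CPM in B16 without being called. The reads on Cdkn2a in YUMM1.1 do not test an engineered deletion, because a gene-level count can come from outside a deleted part.

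Braf, the kinase between RAS and MEK, was at 26.9, 27.2 and 20.7 CPM in YUMM1.1 and 48.4, 61.5 and 58.2 CPM in B16 and was called lower in YUMM1.1 (log2 -1.16 ± 0.14, adjusted p = 5.70e-06). Its exons overlap those of Ndufb2, and the counts say nothing of the allele. Genes of the Y chromosome had reads in YUMM1.1 alone among these libraries: Ddx3y, an RNA helicase, was at 46.5, 31.1 and 39.0 CPM, Kdm5d, a histone demethylase, at 25.2, 14.2 and 23.3 CPM and Eif2s3y, a translation factor subunit, at 43.1, 37.2 and 41.8 CPM, and all 3 had 0 reads in B16. Xist, the RNA of X inactivation, had 1 read over the YUMM1.1 libraries and 2 over the B16 libraries and was not tested. The X-linked partner Ddx3x was not called, with 382 CPM in YUMM1.1 and 486 CPM in B16.

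Pigment genes were lower in YUMM1.1 throughout. All 20 members of the pigment list were tested and all 20 were called lower, with a median log2 difference of -8.70 against 0.00 over all tested genes. Their summed level was 456 to 598 CPM in YUMM1.1 and 36288 to 36657 CPM in B16. Promoters of 4 of these genes are shown because their regulator MITF, itself far lower in YUMM1.1, is known to act through a short element, the M-box, with the core TCATGTG. They are the 250 bases before the start site in RefSeq on GRCm38.p6, from 5′ to 3′ on the strand of the gene, and capitals mark the core or its reverse complement CACATGA. Tyr, tyrosinase, is at chr7:87493513-87493762 on the minus strand.
Tyr: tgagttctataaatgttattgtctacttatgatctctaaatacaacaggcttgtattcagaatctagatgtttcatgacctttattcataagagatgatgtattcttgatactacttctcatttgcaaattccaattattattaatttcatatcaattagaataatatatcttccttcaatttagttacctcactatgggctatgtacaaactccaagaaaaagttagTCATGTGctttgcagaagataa
Tyrp1, tyrosinase-related protein 1, is at chr4:80833963-80834212 on the plus strand.
Tyrp1: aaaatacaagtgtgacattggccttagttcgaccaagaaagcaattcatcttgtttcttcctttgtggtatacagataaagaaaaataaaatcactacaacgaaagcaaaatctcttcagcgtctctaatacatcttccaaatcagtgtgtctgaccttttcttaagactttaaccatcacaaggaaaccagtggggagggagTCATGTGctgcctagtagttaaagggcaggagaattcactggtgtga
Dct, dopachrome tautomerase, is at chr14:118052247-118052496 on the minus strand.
Dct: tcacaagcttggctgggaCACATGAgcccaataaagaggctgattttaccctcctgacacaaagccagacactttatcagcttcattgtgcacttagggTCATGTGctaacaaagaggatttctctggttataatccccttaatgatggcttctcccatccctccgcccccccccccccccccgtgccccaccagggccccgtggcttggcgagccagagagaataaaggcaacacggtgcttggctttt
Trpm1, melastatin, is at chr7:64153585-64153834 on the plus strand.
Trpm1: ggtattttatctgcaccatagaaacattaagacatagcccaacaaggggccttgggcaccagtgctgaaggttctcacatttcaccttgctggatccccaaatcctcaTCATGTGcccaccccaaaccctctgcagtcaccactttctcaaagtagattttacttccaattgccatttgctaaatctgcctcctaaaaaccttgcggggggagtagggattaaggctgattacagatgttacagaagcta
The core begins 22 bases before the start site in Tyr, 47 in Tyrp1 and 142 in Trpm1, and it occurs 232 and 151 bases before the start in Dct. In all, 27025 promoters were searched on both strands over the same window, and 3.27% hold these letters, as do 1.71% of the 9758 promoters of tested genes. The 4 shown were chosen because they hold the core. Promoters were matched for 14 of the 20 pigment genes, and 6 of these 14 hold it; with 6 promoters unmatched, no share is given for the list. A match of letters is a description and not evidence of binding.

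The enzymes of melanin synthesis were among the genes with the most counts in B16 and near or at 0 in YUMM1.1. Tyrp1 had 0 reads in all 3 YUMM1.1 libraries and 8595, 8592 and 9035 CPM in the B16 libraries, which puts it at least 165920.0-fold lower in YUMM1.1 (edgeR adjusted p = 2.22e-13). Dct had 1 read in YUMM1.1 and 8738, 8941 and 8934 CPM in B16. Tyr had 2 reads in YUMM1.1 and 454, 455 and 460.3 CPM in B16. No YUMM1.1 library came near any B16 library for these enzymes.

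Melanosome structure and transport genes followed the same order, some at smaller distances. Pmel, which forms the fibrils on which melanin is laid down, was at 2.57, 2.03 and 2.14 CPM in YUMM1.1 and 5713, 5390.3 and 5108 CPM in B16 (log2 -11.22 ± 0.18, adjusted p = 5.63e-14). Mlana, a melanosome protein, had 4 reads in YUMM1.1 and 1529, 1459 and 1469.5 CPM in B16. The transporter Slc45a2 and the tetraspanin Tspan10 had 0 reads in YUMM1.1 and 849 and 437 CPM in B16. Gpnmb, a melanosome and lysosome glycoprotein, kept a clear level in YUMM1.1 (91.8 ± 43.8 CPM) but was at 6794 ± 88.7 CPM in B16. Motors and adaptors that move melanosomes differed least: Myo5a was at 194 CPM in YUMM1.1 and 632 CPM in B16, and Mlph at 170.0 CPM in YUMM1.1 and 827 CPM in B16. Rab32, a small GTPase of melanosome transport, was closest to the threshold (log2 -1.16 ± 0.11, adjusted p = 6.57e-07). Rab27a, the GTPase that links melanosomes to Mlph and Myo5a, was an exception among them, at 0.233 CPM in YUMM1.1 and 176 CPM in B16. Cdk2 shares exon sequence with Pmel, and its lower level in YUMM1.1 (86.3 CPM against 433 CPM in B16) cannot be separated from Pmel reads without the strand.

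The transcription factors above the pigment genes split. Mitf was at 1.81, 1.92 and 1.59 CPM in YUMM1.1 and 480.2, 506 and 516 CPM in B16, with a log2 difference of -8.13 ± 0.14 (adjusted p = 5.69e-14). Sox10, in contrast, was abundant in both lines, at 729, 739 and 788 CPM in YUMM1.1 and 958, 902 and 828 CPM in B16. Its libraries did not overlap, but the difference of -0.25 ± 0.10 lay far below 2-fold (adjusted p = 0.0427). Pax3, which acts with SOX10 on Mitf, was lower in YUMM1.1 (48.6 CPM against 235 CPM in B16), as was Sox5 (10.6 CPM against 38.9 CPM in B16). Some surface receptors of the lineage were lower too. Mc1r, the melanocortin receptor that drives pigment, was at 0.620, 0.564 and 0.713 CPM in YUMM1.1 and 297, 285 and 280.2 CPM in B16. Kit, the stem cell factor receptor, had 0 reads in YUMM1.1 and 27.7, 21.2 and 35.4 CPM in B16. Lef1, S100b and the surface receptor Erbb3 of the same list were among those called higher in YUMM1.1. In all, 4 of 14 tested melanocyte factors were higher, 5 lower and 5 not called (median log2 0.04), and 4 further members were not tested.

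**Figure D1:**
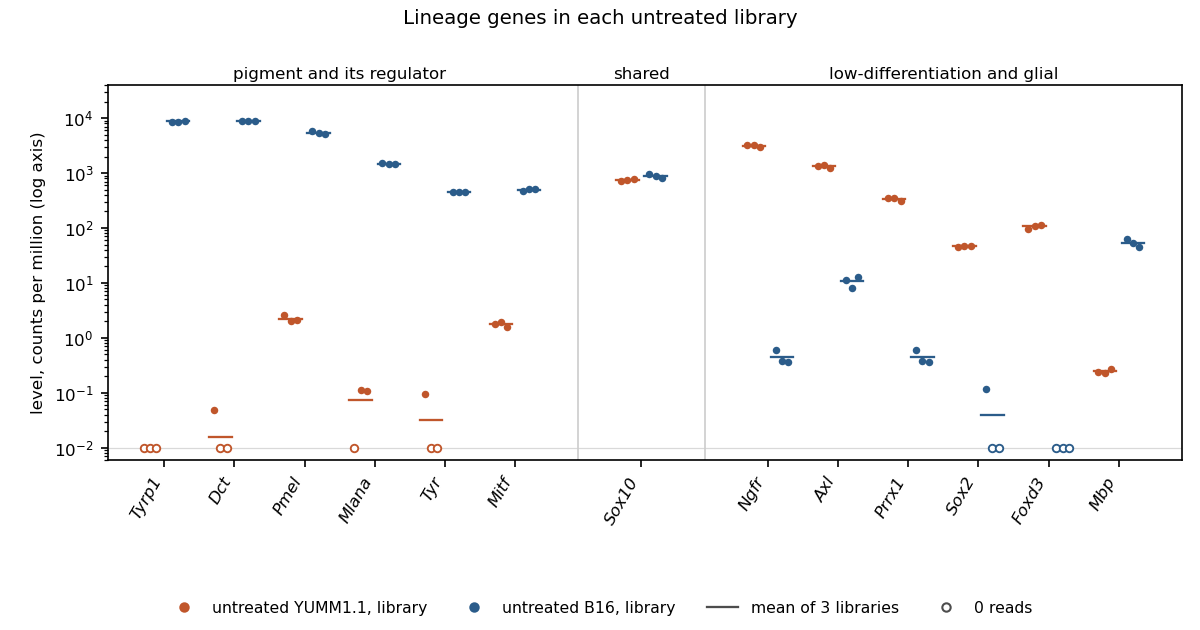
Levels of lineage genes in CPM on a log axis, each point 1 library and each bar the mean of 3, with open circles for 0 reads. Tyrp1, Dct, Pmel, Mlana, Tyr and Mitf lie far lower in YUMM1.1 than in B16, Sox10 lies close in both lines, and Ngfr, Axl, Prrx1, Sox2 and Foxd3 lie higher in YUMM1.1, while Mbp lies lower.

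Genes of the poorly differentiated melanoma state were high in YUMM1.1. Of 16 tested members of that list 13 were called higher and none lower, with a median log2 difference of 5.88, or 4.93 with genes without reads at their floor. Without YUMM1.1 library 3, or with library totals, 1 member, Tead4, was called lower. Ngfr, a neurotrophin receptor, was at 3235, 3196 and 3028 CPM in YUMM1.1 and 0.595, 0.372 and 0.362 CPM in B16, a log2 difference of 12.64 ± 0.21 (adjusted p = 5.63e-14). Axl, a receptor kinase of the TAM family, was at 1349, 1403 and 1255 CPM in YUMM1.1 and 11.5, 7.99 and 12.7 CPM in B16 (log2 6.98 ± 0.17, adjusted p = 4.35e-13). Both had reads in every B16 library, but Axl had 175 B16 reads in all and Ngfr 8. Prrx1, a mesenchymal homeobox factor, was at 349, 346 and 312 CPM in YUMM1.1 and 0.595, 0.372 and 0.362 CPM in B16. Sox2, a factor of neural progenitors, had 46.4 CPM in YUMM1.1 and 1 read in B16, and Wnt5a, a ligand of noncanonical WNT signalling, had 15.7 CPM in YUMM1.1 and 0 reads in B16. Gfra2, a receptor of GDNF family ligands, had 162 CPM in YUMM1.1 and 1 read in B16. Nes, an intermediate filament of neural progenitors, differed less, at 1109 ± 245 CPM in YUMM1.1 and 296 ± 14.3 CPM in B16. Cd44, Sox9 and Tead4 were not called. Egfr, which marks this state in human melanoma, had 3 reads in YUMM1.1 and 0 in B16 and was not tested.

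Markers of Schwann cells and glia were mostly higher in YUMM1.1. Of the 9 markers, all tested, 7 were called higher and 2 lower, and their summed level was 2137 to 2903 CPM in YUMM1.1 and 537 to 556 CPM in B16. Foxd3, an early neural crest factor known to hold back Mitf, was at 97.0, 108 and 114 CPM in YUMM1.1 and at 0 in every B16 library, at least 587-fold higher. Pmp22, a peripheral myelin protein, was at 529 ± 21.2 CPM in YUMM1.1 and 36.3 ± 2.66 CPM in B16, and S100b, a calcium-binding protein of both lineages, at 314 ± 58.9 CPM in YUMM1.1 and 83.6 ± 10.4 CPM in B16. Mbp, the myelin basic protein, went the other way (0.238, 0.226 and 0.274 CPM in YUMM1.1 and 62.4, 53.7 and 45.9 CPM in B16), as did Gfap, a glial filament (3.28 CPM in YUMM1.1 and 14.8 CPM in B16).

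Markers of other cell types were low in both lines, with an exception among fibroblast genes. The 7 endothelial markers summed to 0.219 to 0.338 CPM in YUMM1.1 and 0 to 0.558 CPM in B16, and none was tested. Of 13 leukocyte markers 3 were tested, and all 13 summed to 4.196 to 7.39 CPM in YUMM1.1 and 5.39 to 10.1 CPM in B16. Of the 13, 6 were at 0 reads in YUMM1.1 and 5 in B16, and Ptprc, which encodes CD45, had 0 reads in YUMM1.1 and 1 in B16. Among these Fcer1g, an Fc receptor chain, was called lower in YUMM1.1 (0.151 CPM against 2.52 CPM in B16), and without B16 library 2 or 3 another member was called higher. Of the 8 keratinocyte markers Krt10 was tested, with 241 reads in YUMM1.1 and 0 in B16. The 10 fibroblast markers summed to 2418 to 3869 CPM in YUMM1.1 and 11.9 to 21.3 CPM in B16, in YUMM1.1 nearly all of it from Postn and Col3a1. Of the 10, 5 were tested: Postn, Col3a1 and Col1a1 were called higher (6.13 CPM of Col1a1 in YUMM1.1 and 2.35 CPM in B16), Col1a2 lower (0.753 CPM in YUMM1.1 and 4.96 CPM in B16), and Pdgfra was not called. The untested markers Thy1, Lum, Dcn, Fap and Pdgfrb had 0, 1, 2, 0 and 16 reads in YUMM1.1 and 0, 0, 6, 1 and 5 in B16. Any part of other cell types in the results was not tested.

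Mesenchymal genes formed the next group. Of 15 tested genes linked to the epithelial-mesenchymal transition 12 were called higher in YUMM1.1 and none lower (median log2 2.59 against 0.00 over all tested genes). S100a4, a calcium-binding protein of motile cells, was at 499, 662 and 547 CPM in YUMM1.1 and had 1 read in B16. Its relative S100a6 was at 1502, 2371 and 1773 CPM in YUMM1.1 and 0.714, 2.79 and 4.34 CPM in B16. Vim, the mesenchymal filament vimentin, was abundant in both lines, at 9450.0, 13258 and 11420.0 CPM in YUMM1.1 and 1945, 1891 and 1839 CPM in B16 (log2 2.59 ± 0.14, adjusted p = 1.55e-09). Among the factors that repress epithelial genes, Twist1 was at 25.7 CPM in YUMM1.1 and 0.121 CPM in B16, Zeb1 at 8.42 CPM in YUMM1.1 and 0.546 CPM in B16, and Snai2 at 31.9 CPM in YUMM1.1 and 3.14 CPM in B16. Zeb2, which belongs to melanocytes as well, was not called (225 CPM in YUMM1.1 and 143 CPM in B16). Cadherins showed the same side, with Cdh2 (N-cadherin) at 285 ± 45.3 CPM in YUMM1.1 and 70.7 ± 3.54 CPM in B16. Cdh1 (E-cadherin) had 6 reads in YUMM1.1 and 5 in B16 and was not tested.

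Collagens were higher in YUMM1.1 for most members, with a minority on the B16 side. Of 27 tested collagen genes 19 were called higher and 5 lower, and the summed level was 10146 to 13961 CPM in YUMM1.1 and 299.8 to 315 CPM in B16. Col4a1 and Col4a2, the main chains of basement membrane, share a head-to-head locus. Col4a1 was at 2498, 1801 and 1961 CPM in YUMM1.1 and 45.1, 39.2 and 50.6 CPM in B16, and Col4a2 at 1649, 1220.0 and 1262 CPM in YUMM1.1 and 14.3, 14.9 and 14.1 CPM in B16. Col18a1, the source of endostatin, was at 2502, 1868 and 1794 CPM in YUMM1.1 and 0.951, 1.12 and 0.723 CPM in B16 (log2 11.04 ± 0.24, adjusted p = 2.30e-13). The chains of type IV were split: Col4a5, an X-linked chain of specialised basement membranes, was at 0.191, 0.169 and 0.0548 CPM in YUMM1.1 and 38.4, 34.8 and 32.5 CPM in B16, and Col4a4 was also called lower. Among fibrillar chains Col3a1 was at 965 CPM in YUMM1.1 and 1.85 CPM in B16 and Col5a2 at 1143 CPM in YUMM1.1 and 0.646 CPM in B16, while Col1a1, the main chain of dermal collagen, reached 6.13 CPM in YUMM1.1 and 2.35 CPM in B16.

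Matrix glycoproteins were likewise mixed in direction. Of 21 tested, 13 were called higher and 3 lower, or 8 lower where genes with few reads were kept. Sparc, a collagen-binding matrix protein, was at 13789, 10537 and 11978 CPM in YUMM1.1 and 1078, 1048 and 1059 CPM in B16 (log2 3.51 ± 0.14, adjusted p = 4.75e-11). Postn, periostin, was at 2736, 1434 and 1849.8 CPM in YUMM1.1, highest in library 1, and 1.90, 2.42 and 2.53 CPM in B16. Spp1, osteopontin, was at 189.7 CPM in YUMM1.1 and 3.39 CPM in B16, and Hspg2, the basement membrane proteoglycan perlecan, at 1282 CPM in YUMM1.1 and 245 CPM in B16. The fibulins of elastic fibres were on the B16 side: Fbln1 was at 0.763, 0.677 and 0.658 CPM in YUMM1.1 and 171, 159 and 149.7 CPM in B16, and Fbln5 at 2.48, 1.07 and 3.13 CPM in YUMM1.1 and 157, 157 and 142 CPM in B16. Fn1, fibronectin, was at 286, 116 and 118 CPM in YUMM1.1 and 88.0, 97.8 and 93.3 CPM in B16 and stayed under 2-fold (log2 0.90 ± 0.32, adjusted p = 0.0267). YUMM1.1 library 1 carried much of that difference: it was 0.34 without library 1, and 1.13 and 1.12, past the threshold, without library 2 and 3.

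Proteases that remodel matrix and their inhibitors were nearly all higher in YUMM1.1, 24 of 28 tested with 1 lower (median log2 3.21, 3.15 at the floor). Mmp15, a membrane-bound metalloprotease, was at 759, 739 and 704 CPM in YUMM1.1 and 32.5, 28.1 and 30.0 CPM in B16, and Adamts5, which cleaves proteoglycans, at 238, 205 and 197 CPM in YUMM1.1 and 2.02, 1.30 and 0.723 CPM in B16. Mmp14, the activator of MMP2, differed by 2.28-fold (642 CPM in YUMM1.1 and 282 CPM in B16), and Mmp2 by 9.60-fold (64.0 CPM in YUMM1.1 and 6.74 CPM in B16). Mmp3 and Mmp10, neighbours on chromosome 9, had 914 and 447 reads in YUMM1.1 and 0 in B16. The inhibitor Timp2 was at 2057, 1817 and 2036 CPM in YUMM1.1 and 318, 299 and 291 CPM in B16, so proteases and inhibitor were high in the same line. Mmp11 was the member called lower (2.37 CPM in YUMM1.1 and 7.80 CPM in B16), and its exons overlap Chchd10.

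Receptors for matrix followed, with 16 of 23 tested integrins and laminins called higher in YUMM1.1 and 2 lower. Itgb1, the shared beta chain, was at 2391, 1801 and 1700.0 CPM in YUMM1.1 and 485, 518 and 568 CPM in B16. Its alpha partners differed more widely. Itga8 was at 452, 328 and 342 CPM in YUMM1.1 and 1.31, 0.929 and 0.362 CPM in B16, and Itga3, a laminin receptor chain, at 165, 148 and 112 CPM in YUMM1.1 and 2.14, 2.42 and 2.89 CPM in B16. Itga9 was the reverse, at 0.381, 1.07 and 0.658 CPM in YUMM1.1 and 52.9, 46.5 and 51.7 CPM in B16. Itga4 was close to level in both lines (259.9 CPM in YUMM1.1 and 202 CPM in B16). Of the laminins, Lama5 was lower in YUMM1.1 (21.5, 7.84 and 11.8 CPM, against 89.1, 81.8 and 83.9 CPM in B16), whereas Lama4 was higher (684 CPM, against 156 CPM in B16).

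**Figure D2:**
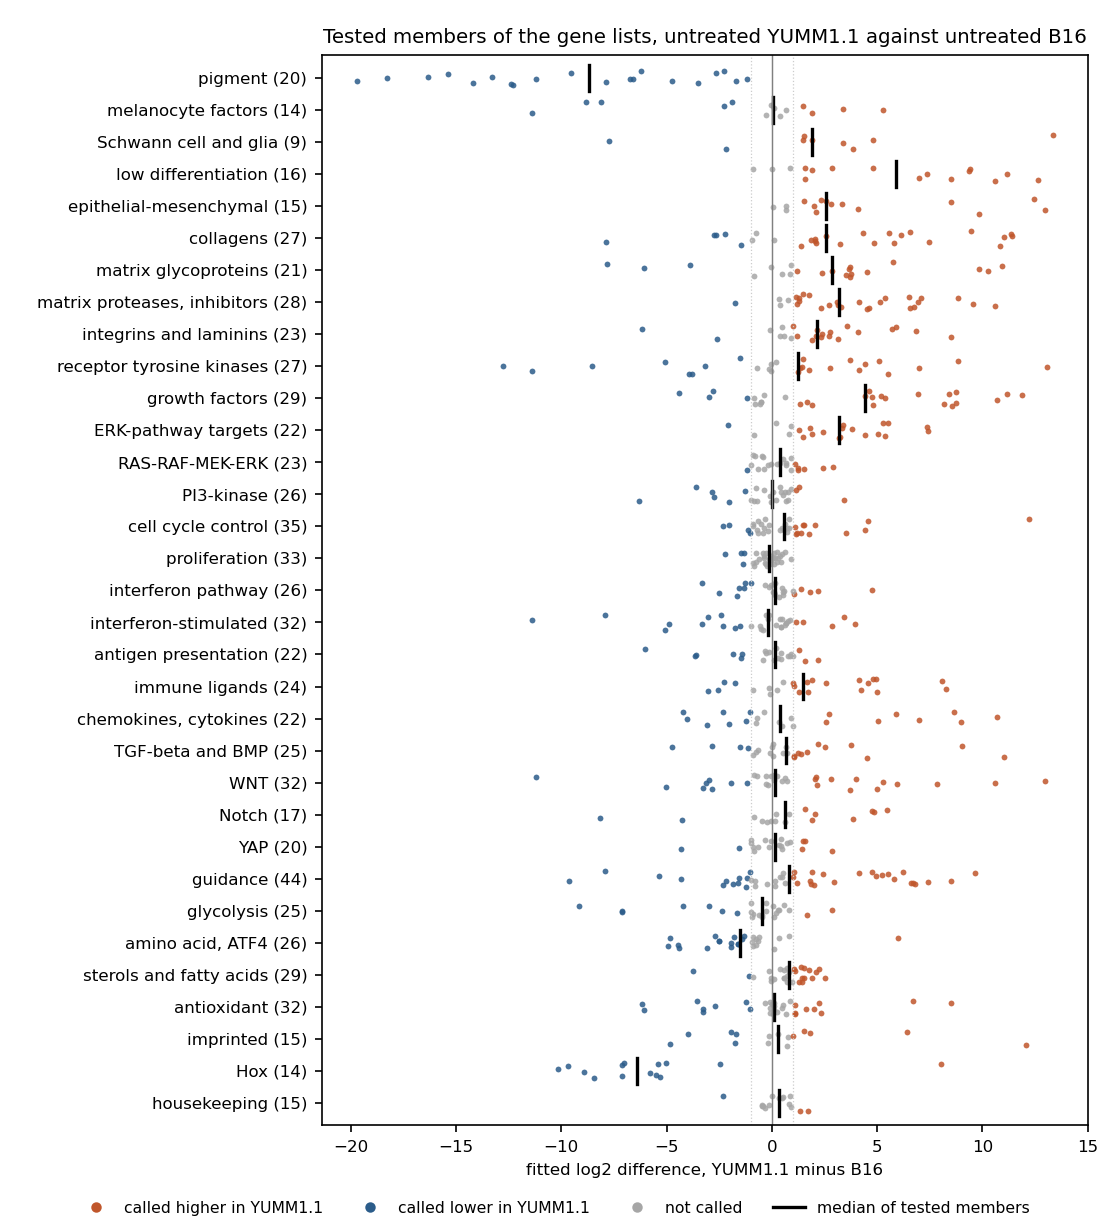
Fitted log2 differences of YUMM1.1 minus B16 for the tested members of 33 gene lists (number tested in brackets), 1 point per gene with the median as a bar; points of genes without reads in 1 line depend on the fit's prior count. The pigment and Hox lists lie to the left, the low-differentiation, growth factor, matrix protease and ERK-target lists to the right, and proliferation genes crowd around 0.

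The lines carried different sets of receptor tyrosine kinases. Of 27 tested, 14 were called higher in YUMM1.1 and 8 lower, and 21 of the 48 listed had too few reads. Met, the receptor of hepatocyte growth factor, was at 23.6, 30.1 and 22.2 CPM in YUMM1.1 and 339.6, 354 and 355 CPM in B16. Ddr2, a receptor for fibrillar collagen, was at 0.906, 0.789 and 0.987 CPM in YUMM1.1 and 298, 345 and 358 CPM in B16, while its relative Ddr1 was higher in YUMM1.1 (339.7 CPM, against 133 CPM in B16). Epha3 had 0 reads in YUMM1.1 and 71.4 CPM in B16. On the YUMM1.1 side, Epha2 was at 185, 117 and 149 CPM in YUMM1.1 and 3.57, 2.97 and 2.89 CPM in B16, and Flt1, a VEGF receptor, at 97.3, 105 and 60.9 CPM in YUMM1.1 and 0 in every B16 library. Mertk, the TAM relative of Axl, was at 69.5 CPM in YUMM1.1 and 5.25 CPM in B16, and Tyro3, the other TAM receptor, at 12.1 CPM in YUMM1.1 and 33.6 CPM in B16. Erbb3, a neuregulin receptor, was at 588 CPM in YUMM1.1 and 210.1 CPM in B16. Fgfr1 and Fgfr3 lay on opposite sides, Fgfr1 at 54.2 CPM in YUMM1.1 and 3.02 CPM in B16 and Fgfr3 at 0.265 CPM in YUMM1.1 and 9.12 CPM in B16.

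Growth factor genes were higher in YUMM1.1 in 18 of 29 tested members, and lower in 4, or 7 where genes with few reads were kept. The median log2 difference was 4.42, or 3.26 with members without reads at their floor. Kitl, the ligand of KIT, was at 459, 378 and 332 CPM in YUMM1.1 and 0.595, 1.30 and 1.08 CPM in B16, the opposite order to its receptor Kit. Pdgfa was at 329.7, 369 and 346 CPM in YUMM1.1 and 13.8, 11.9 and 12.7 CPM in B16 (log2 4.75 ± 0.12, adjusted p = 8.90e-13), while its receptor Pdgfra was near 4 CPM in both lines (3.94 CPM in YUMM1.1 and 4.53 CPM in B16). Ligands of the ERBB family were also on the YUMM1.1 side: Hbegf was at 217 CPM in YUMM1.1 and 6.26 CPM in B16, and Nrg1 and Btc had 1325 and 963 reads in YUMM1.1 and 0 in B16. Angpt2, a vessel-destabilising factor, was on the B16 side, at 4.62, 6.20 and 4.66 CPM in YUMM1.1 and 39.4, 41.5 and 43.4 CPM in B16, as was Fgf1, at 0.715, 0.338 and 0.768 CPM in YUMM1.1 and 15.6, 12.5 and 10.8 CPM in B16. Vegfa was not called (41.2 CPM in YUMM1.1 and 57.5 CPM in B16).

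Target genes of the ERK pathway were higher in YUMM1.1. Of 22 tested targets 17 were called higher and 1 lower, and with library totals 2 were called lower. Ccnd1, the cyclin of the G1 phase, was at 3451, 3756 and 3353 CPM in YUMM1.1 and 157, 163 and 164 CPM in B16 (log2 4.45 ± 0.12, adjusted p = 1.55e-12). The immediate early factor Egr1 was at 49.9, 59.4 and 83.2 CPM in YUMM1.1 and 0.238, 0.744 and 0 CPM in B16, and Fosl1, an AP-1 subunit, at 24.6, 19.7 and 20.8 CPM in YUMM1.1 and 0.119, 0.186 and 0 CPM in B16. The ETS factors Etv4 and Etv5 were at 36.0 and 83.2 CPM in YUMM1.1 and 0.904 and 8.002 CPM in B16. Several negative feedback genes were on the same side. Dusp6, an ERK phosphatase, was at 309, 236 and 326 CPM in YUMM1.1 and 115, 112 and 131 CPM in B16, and Spry4, a Sprouty inhibitor, at 38.6 CPM in YUMM1.1 and 4.10 CPM in B16. Dusp4 and Spry1 were not called. Myc was the target called lower, at 37.8, 26.3 and 39.6 CPM in YUMM1.1 and 148, 149 and 135 CPM in B16. It lies on chromosome 15, whose median was lower in YUMM1.1. Dusp6 and Ccnd1, called higher, lie on chromosomes 10 and 7, whose medians were higher. Whether the chromosome plays a part in these differences was not tested.

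The kinases and GTPases of the pathway itself were called at a share not far from that of all tested genes (38.4%). Of 23 tested, 6 were called higher, 1 lower and 16 not called; with library totals 3 were lower, and without YUMM1.1 library 1 there were 2. Nras was at 266, 329 and 267 CPM in YUMM1.1 and 95.7, 98.2 and 101 CPM in B16 (log2 1.55 ± 0.11, adjusted p = 2.49e-08). Hras was higher by less than 2-fold, with a log2 difference of 0.68 ± 0.13. Rras2, a RAS relative, was at 141 ± 14.9 CPM in YUMM1.1 and 19.2 ± 1.93 CPM in B16, and the scaffold Ksr1 at 81.1 ± 4.17 CPM in YUMM1.1 and 14.8 ± 1.89 CPM in B16. Mapk3, an ERK gene, was at 401 CPM in YUMM1.1 and 168 CPM in B16. In the PI3-kinase list 3 of 26 tested genes were higher and 6 lower. Inpp4b, a phosphatase that opposes the pathway, was at 0.191, 0.395 and 0.219 CPM in YUMM1.1 and 18.3, 21.9 and 24.9 CPM in B16. The regulatory subunits split, Pik3r3 at 24.9 ± 3.50 CPM in YUMM1.1 and 178 ± 12.1 CPM in B16 and Pik3r1 at 125 ± 15.7 CPM in YUMM1.1 and 52.0 ± 5.36 CPM in B16. Sgk1, a kinase downstream, was at 70.3, 59.1 and 57.2 CPM in YUMM1.1 and 6.78, 4.28 and 5.79 CPM in B16. Akt1 was at 1046 ± 232 CPM in YUMM1.1 and 1097 ± 61.9 CPM in B16, within the spread between libraries (adjusted p = 0.678).

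**Figure D3:**
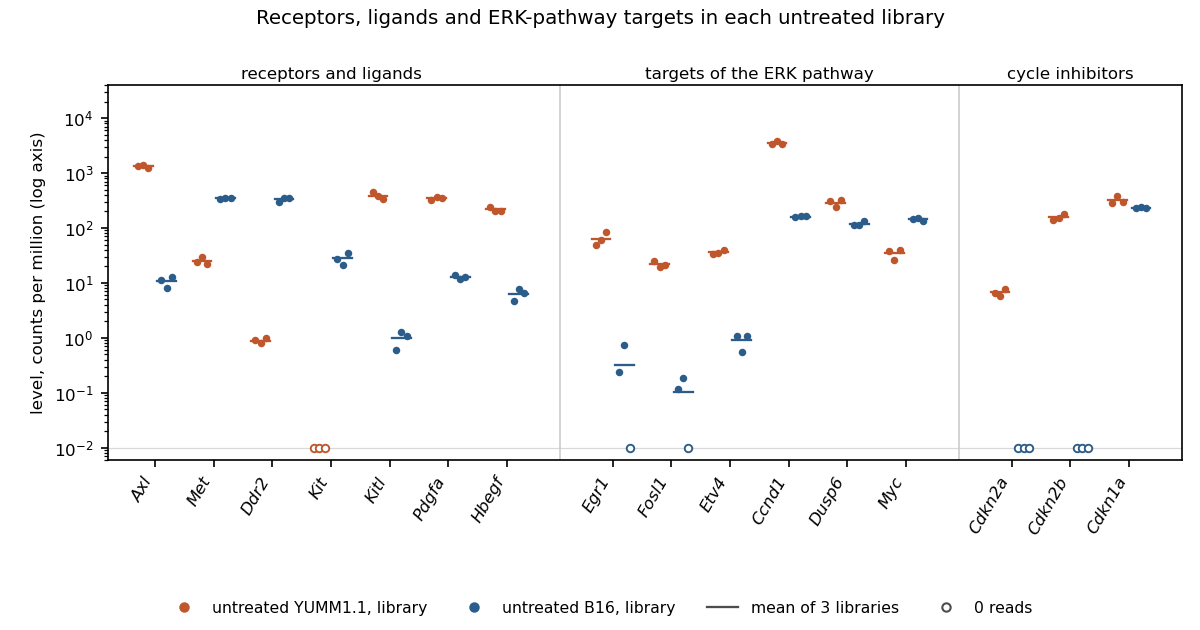
Levels of receptors, ligands, ERK-pathway targets and cell cycle inhibitors in CPM on a log axis, each point 1 library and each bar the mean of 3, with open circles for 0 reads. Kit has no reads in YUMM1.1 where its ligand Kitl is high, Met and Ddr2 lie lower in YUMM1.1, and Myc lies lower among the ERK targets while Egr1, Fosl1, Etv4, Ccnd1 and Dusp6 lie higher.

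Most proliferation genes were not called. None of 33 tested was called higher and 4 were called lower, 29 not called (38.4% of all tested genes were called), with a median log2 difference of -0.11. Without YUMM1.1 library 1, 1 gene was called higher. An edgeR adjusted p below 0.05 alone was reached by 20 of the 33, against 71.7% of all tested genes. Their summed level was lower in YUMM1.1, at 5168 to 5626 CPM against 6678 to 6803 CPM in B16. Mki67 was at 386, 282 and 260.0 CPM in YUMM1.1 and 349, 465 and 445 CPM in B16, and the libraries overlapped. Top2a, the mitotic topoisomerase, was at 582 ± 93.7 CPM in YUMM1.1 and 609.7 ± 45.2 CPM in B16 (adjusted p = 0.646). The members called lower were the DNA replication licensing genes Mcm2, Mcm3, Mcm6 and Cdt1. Mcm2 was at 146, 158 and 154 CPM in YUMM1.1 and 749, 684 and 682 CPM in B16 (log2 -2.21 ± 0.10), and Mcm3 at 136, 155 and 148 CPM in YUMM1.1 and 399, 388 and 366 CPM in B16 (log2 -1.39 ± 0.10). Among cell cycle regulators 12 of 35 tested were higher and 4 lower. Trp53 itself was at 227 ± 9.18 CPM in YUMM1.1 and 301 ± 13.6 CPM in B16, under 2-fold apart. Of its known targets, Ccng1 was at 637 CPM in YUMM1.1 and 156 CPM in B16, Mdm2 at 188 CPM in YUMM1.1 and 87.8 CPM in B16, and Eda2r at 47.7 CPM in YUMM1.1 with 0 reads in B16, whereas Cdkn1a was not called (log2 0.47 ± 0.12, adjusted p = 0.0026). Plk2, a polo-like kinase, was at 143, 132 and 167 CPM in YUMM1.1 and 6.30, 5.95 and 6.15 CPM in B16. E2f2, an S-phase factor, was at 10.4, 7.89 and 9.32 CPM in YUMM1.1 and 39.2, 32.3 and 43.8 CPM in B16, and Ccnd2, another D-type cyclin, at 527 CPM in YUMM1.1 and 968 CPM in B16 without being called.

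The study gave IFNG to both lines in its other libraries. The untreated libraries show the levels of that pathway without IFNG, and the labels give 48 h for treated and untreated libraries alike. The receptor chains lay on opposite sides. Ifngr1, the ligand-binding chain, was at 72.7, 57.8 and 70.8 CPM in YUMM1.1 and 13.4, 15.2 and 16.3 CPM in B16 (log2 2.19 ± 0.14, adjusted p = 8.33e-09), and Ifngr2, the signalling chain, at 32.1, 42.2 and 37.2 CPM in YUMM1.1 and 108, 104 and 117 CPM in B16 (log2 -1.55 ± 0.12, adjusted p = 4.79e-08). The kinases Jak1 and Jak2 were higher by less than 2-fold, with log2 differences of 0.48 ± 0.10 and 0.53 ± 0.11. Irf1, a factor that IFNG is known to induce, did not separate the lines (30.8, 27.8 and 31.9 CPM in YUMM1.1 and 30.4, 28.6 and 22.1 CPM in B16, adjusted p = 0.421). The feedback inhibitor Socs1 was at 32.7, 43.7 and 40.4 CPM in YUMM1.1 and 1.55, 1.49 and 1.08 CPM in B16 (log2 4.74 ± 0.22, adjusted p = 2.67e-10). Other negative regulators were on the B16 side, the phosphatase Ptpn6 at 7.67 CPM in YUMM1.1 and 43.9 CPM in B16 and Usp18, an inhibitor of type I interferon receptors, at 0.157 CPM in YUMM1.1 and 1.76 CPM in B16. Stat5b was also lower in YUMM1.1 (32.3 ± 1.93 CPM, against 100.2 ± 0.792 CPM in B16). Of the 26 tested pathway genes 5 were higher, 7 lower and 14 not called (median log2 0.15), where 38.4% of all tested genes were called.

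Interferon-stimulated genes were split between the lines. Of 32 tested, 5 were called higher in YUMM1.1, 10 lower and 17 not called. Over all tested genes 20.1% were called higher and 18.4% lower. A further 12 of the 44 were not tested, with at most 1.67 CPM among those. On the B16 side, Bst2 (tetherin), which holds virions at the membrane, was at 5.96, 5.13 and 8.28 CPM in YUMM1.1 and 67.5, 63.0 and 62.9 CPM in B16, and Trim25, a ubiquitin ligase of RIG-I signalling, had 0 reads in YUMM1.1 and 26.9, 29.2 and 26.0 CPM in B16. Rsad2 (viperin), an antiviral enzyme, had 2 reads in YUMM1.1 and 184 in B16. On the YUMM1.1 side, Ifit3, an antiviral RNA-binding protein, was at 24.2, 30.1 and 28.8 CPM in YUMM1.1 and 4.04, 3.90 and 3.25 CPM in B16. Gbp7, a guanylate-binding protein, was at 23.9, 20.3 and 18.1 CPM in YUMM1.1 and 1.67, 2.60 and 1.45 CPM in B16. Reads of this family can fall on close copies, so single members are uncertain. Isg15 was at 2.18 CPM in YUMM1.1 and 6.28 CPM in B16, low in both.

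Class I antigen presentation differed at the heavy chains more than at B2m. H2-D1 was at 39.0, 27.2 and 47.9 CPM in YUMM1.1 and 147, 129 and 136 CPM in B16 (log2 -1.85 ± 0.17, adjusted p = 5.06e-07), and H2-K1 at 12.5, 15.3 and 17.4 CPM in YUMM1.1 and 46.9, 40.5 and 36.5 CPM in B16 (log2 -1.47 ± 0.15, adjusted p = 9.58e-07). B2m, their shared light chain, was at 459.8, 422 and 478 CPM in YUMM1.1 and 362, 357 and 394 CPM in B16, a difference of 0.29 ± 0.10. Nlrc5, the class I transactivator, was at 0.180 CPM in YUMM1.1 and 2.43 CPM in B16. The peptide transporter gene Tap1 was low in both (2.72 CPM in YUMM1.1 and 2.98 CPM in B16). Chaperones of the endoplasmic reticulum were on the other side, Pdia3 at 1544, 1388 and 1341 CPM in YUMM1.1 and 534, 568 and 635 CPM in B16 and Calr, not called, at 1470.3 ± 81.1 CPM in YUMM1.1 and 806 ± 63.1 CPM in B16. The antigen presentation list holds class II genes as well as class I genes. Of its 22 tested genes 3 were higher, 6 lower and 13 not called, about the share of all tested genes (38.4% called). Without YUMM1.1 library 1 there were 5 higher. The H2 genes are close copies of each other, and reads could be shared among them.

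A list of ligands that immune cells read, which also holds enzymes, the receptor gene Fas and complement regulators, was higher in YUMM1.1 in 15 of 24 tested members and lower in 4. Cd274, which encodes PD-L1, was on the B16 side, at 0.811, 0.789 and 0.768 CPM in YUMM1.1 and 6.07, 7.06 and 6.15 CPM in B16 (log2 -3.01 ± 0.29, adjusted p = 5.04e-07). Cd47, the signal against phagocytosis, was at 110.2, 90.8 and 77.5 CPM in YUMM1.1 and 29.0, 27.1 and 30.0 CPM in B16 (log2 1.70 ± 0.14, adjusted p = 1.07e-07), and Cd200, a further inhibitory ligand, at 91.5, 80.2 and 85.4 CPM in YUMM1.1 and 0.238, 0.372 and 0.362 CPM in B16. Lgals1, galectin 1, was abundant in both, at 2243, 3373 and 3104 CPM in YUMM1.1 and 1313, 1161 and 1077 CPM in B16. Ulbp1, a ligand of the activating receptor NKG2D, was at 2.24, 1.52 and 2.25 CPM in YUMM1.1 and 9.51, 15.99 and 9.76 CPM in B16, while Raet1e, another NKG2D ligand, was higher in YUMM1.1 (6.92 CPM, against 2.09 CPM in B16).

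Chemokines and cytokines were few but far apart. Of 56 listed 22 were tested, 8 higher and 7 lower. Ccl2, which draws monocytes, was at 135, 117 and 101 CPM in YUMM1.1 and had 1 read in B16, a ratio of 1955 (95% counting interval 351 to 77247). The ligands of the macrophage receptor CSF1R were on the same side, Il34 at 50.3, 54.1 and 56.2 CPM in YUMM1.1 and 0.119, 0 and 0.362 CPM in B16 and Csf1 at 176 CPM in YUMM1.1 and 26.5 CPM in B16. Cxcl10, which draws T cells, was on the B16 side, at 2.62, 2.37 and 2.797 CPM in YUMM1.1 and 13.7, 12.3 and 12.7 CPM in B16, as was Tgfb1, an immune-suppressive cytokine, at 2.48, 3.33 and 1.70 CPM in YUMM1.1 and 22.2, 20.3 and 19.9 CPM in B16. Mif was abundant in both and lower in YUMM1.1 (log2 -1.05 ± 0.13, adjusted p = 5.82e-06), but by less than 2-fold without YUMM1.1 library 1 (-0.92) or B16 library 1 (-0.97).

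**Figure D4:**
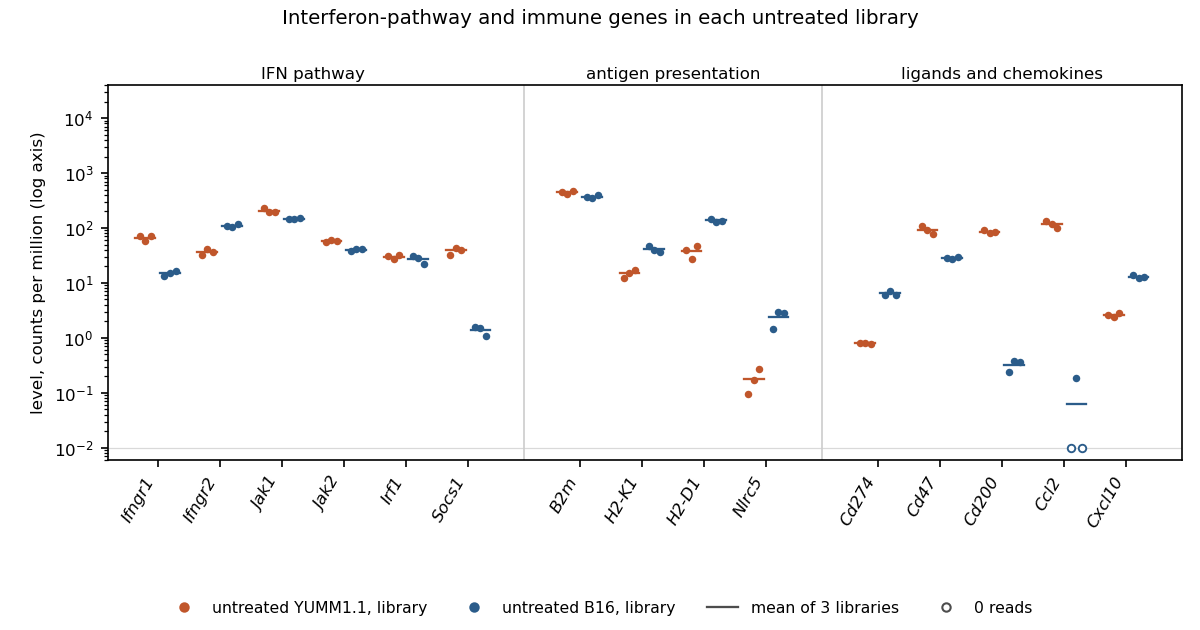
Levels of interferon-pathway, antigen-presentation and immune genes in CPM on a log axis, each point 1 library and each bar the mean of 3, with open circles for 0 reads. Ifngr1, Socs1, Cd47, Cd200 and Ccl2 lie higher in YUMM1.1, Ifngr2, H2-K1, H2-D1, Nlrc5, Cd274 and Cxcl10 lie lower, and the libraries of the lines overlap for Irf1.

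Lists of developmental pathways held genes called in both directions and genes not called, where 38.4% of all tested genes were called. In the TGF-beta and BMP list 11 of 25 tested genes were higher, 4 lower and 10 not called. Ltbp1, which stores latent TGF-beta in the matrix, was at 324, 240.0 and 214 CPM in YUMM1.1 and 0.119, 0.929 and 0.723 CPM in B16. The coreceptor Tgfbr3 was at 179 ± 26.7 CPM in YUMM1.1 and 7.54 ± 0.733 CPM in B16, the receptor Tgfbr2 at 205 CPM in YUMM1.1 and 64.1 CPM in B16, and the activin receptor Acvr2b at 1.36 ± 0.0958 CPM in YUMM1.1 and 9.64 ± 0.661 CPM in B16. Of the target genes Id1 was higher in YUMM1.1 (132 CPM, against 9.98 CPM in B16) and Id3 was not called (122 CPM in YUMM1.1 and 115 CPM in B16). The BMP mediator Smad5 was lower in YUMM1.1 (log2 -1.13 ± 0.11, adjusted p = 5.03e-07).

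In the WNT list 12 of 32 tested genes were higher, 8 lower and 12 not called. Ctnnb1, beta-catenin, was at 612, 533 and 603 CPM in YUMM1.1 and 1250.4, 1375 and 1354 CPM in B16 (log2 -1.19 ± 0.11, adjusted p = 2.88e-07). Frizzled receptors changed places, with Fzd8 at 68.4, 52.1 and 51.5 CPM in YUMM1.1 and 0.238, 0.372 and 0 CPM in B16 and Fzd6 at 2.24, 4.40 and 3.45 CPM in YUMM1.1 and 31.3, 33.8 and 33.3 CPM in B16. So did secreted antagonists: Sfrp1 was at 95.1, 71.5 and 82.1 CPM in YUMM1.1 with 0 reads in B16, and Dkk3 had 0 reads in YUMM1.1 and 22.7, 24.4 and 24.2 CPM in B16. The feedback target Axin2 was lower in YUMM1.1 (4.88 CPM, against 18.7 CPM in B16), while the feedback gene Nkd2 was higher (203 ± 38.2 CPM, against 3.19 ± 0.605 CPM in B16).

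In the Notch list 7 of 17 tested genes were higher, 2 lower and 8 not called. The receptor Notch1 was at 453, 265 and 281 CPM in YUMM1.1 and 12.1, 12.3 and 9.76 CPM in B16, and its target Hes1 at 149.6 CPM in YUMM1.1 and 5.42 CPM in B16. The Fringe enzymes that tune Notch were exchanged, Lfng at 34.9 ± 7.14 CPM in YUMM1.1 and 0.766 ± 0.0581 CPM in B16 and Mfng at 0 reads in YUMM1.1 and 50 reads in B16. The ligand Jag2 was on the B16 side (0.398 CPM in YUMM1.1 and 8.41 CPM in B16). In the YAP list 4 of 20 tested genes were higher, 2 lower and 14 not called, a smaller share called than over all tested genes (38.4%). With library totals or without YUMM1.1 library 3, 6 were lower. The YAP partners Tead1 and Tead2 lay on opposite sides, Tead1 at 315, 313 and 251 CPM in YUMM1.1 and 91.8, 93.9 and 109.6 CPM in B16 and Tead2 at 2.72, 6.48 and 4.28 CPM in YUMM1.1 and 94.3, 89.8 and 84.6 CPM in B16. The target Ccn1 was at 189 ± 16.8 CPM in YUMM1.1 and 26.2 ± 1.12 CPM in B16 (log2 2.86 ± 0.12, adjusted p = 6.12e-11). Yap1 itself was not called (166 CPM in YUMM1.1 and 210.0 CPM in B16).

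Axon guidance genes, which neural crest cells also use to migrate, were among the lists with the most called genes in both directions: 22 of 44 tested were higher in YUMM1.1 and 12 lower. Unc5c, a netrin receptor, was at 0.0477, 0.451 and 0.110 CPM in YUMM1.1 and 147, 157 and 179 CPM in B16, and Ntn1, a netrin, was on the other side (11.9 CPM in YUMM1.1 and 1 read in B16). Plxnc1, a receptor of semaphorin 7A, was at 0.429, 0.620 and 0.713 CPM in YUMM1.1 and 135, 140.2 and 150.4 CPM in B16, and its ligand gene Sema7a at 196, 173 and 158 CPM in YUMM1.1 and 4.16, 3.35 and 3.62 CPM in B16. In both pairs the line with more of the ligand had little of the receptor named here. Other receptors of these ligands were not set beside them here, so the pairs do not show that a line lacks receptors for its ligand. Efnb1, an ephrin, was at 271 ± 14.8 CPM in YUMM1.1 and 10.1 ± 2.02 CPM in B16. Robo2 and Robo1, receptors of Slit proteins, lay on opposite sides: Robo2 was at 55.0 CPM in YUMM1.1 and 0.685 CPM in B16, and Robo1 at 2.58 CPM in YUMM1.1 and 51.8 CPM in B16.

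Genes of the amino acid response driven by the factor ATF4 were lower in YUMM1.1. Of 26 tested, 15 were called lower and 1 higher, with a median log2 difference of -1.51 against 0.00 over all tested genes; 2 were called higher without YUMM1.1 library 2 or without any 1 of the B16 libraries. Atf4 was at 315, 299 and 388 CPM in YUMM1.1 and 926, 903 and 873 CPM in B16 (log2 -1.43 ± 0.12, adjusted p = 1.04e-07). Its target Trib3, a pseudokinase, was at 13.1, 12.4 and 17.5 CPM in YUMM1.1 and 429, 403 and 378 CPM in B16, and Chac1, which degrades glutathione, at 13.3, 12.2 and 15.2 CPM in YUMM1.1 and 115, 116 and 107 CPM in B16. The same order held for Asns, asparagine synthetase (195 CPM in YUMM1.1 and 685 CPM in B16), for Ddit3, the stress factor CHOP (22.97 CPM in YUMM1.1 and 130.2 CPM in B16), and for Slc7a11, the cystine importer (3.47 CPM in YUMM1.1 and 74.3 CPM in B16). Serine synthesis was mixed, with Psat1 not called (572 CPM in YUMM1.1 and 458 CPM in B16) and Psph called lower (61.7 CPM in YUMM1.1 and 156 CPM in B16). Vldlr, the member called higher, is a lipoprotein receptor (143 ± 26.6 CPM in YUMM1.1 and 2.12 ± 0.350 CPM in B16).

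Glycolysis genes were called at about the share of all tested genes (38.4%). Of 25 tested, 2 were higher and 7 lower (11 lower with library totals), and 16 were not called. The hexokinases were exchanged: Hk1 was at 765, 722 and 858 CPM in YUMM1.1 and 108, 101 and 118 CPM in B16, and Hk2 at 12.02, 11.8 and 11.95 CPM in YUMM1.1 and 101, 86.4 and 99.4 CPM in B16. Aldoc, the brain-type aldolase, was at 0.524, 0.395 and 0.219 CPM in YUMM1.1 and 62.1, 53.7 and 44.5 CPM in B16, while Aldoa was not called. The glucose transporter Slc2a3 was at 0.163 CPM in YUMM1.1 and 23.4 CPM in B16, and Slc2a1 was not called (62.6 CPM in YUMM1.1 and 57.5 CPM in B16). Pkm, the last kinase of the pathway, was at 2299 ± 333 CPM in YUMM1.1 and 2752 ± 292 CPM in B16, with overlapping libraries.

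Sterol and fatty acid genes were higher in YUMM1.1 in 13 of 29 tested members and lower in 2 (1 lower without YUMM1.1 library 2 or 3). Scd1, a fatty acid desaturase, was at 1281, 935 and 1251 CPM in YUMM1.1 and 192, 196 and 218 CPM in B16 (log2 2.52 ± 0.14, adjusted p = 1.32e-09), whereas its neighbour Scd2 was at 2688 ± 345 CPM in YUMM1.1 and 2462 ± 24.8 CPM in B16 and was not called. Hmgcs1, an early enzyme of cholesterol synthesis, was at 236, 194 and 243 CPM in YUMM1.1 and 47.7, 54.8 and 56.4 CPM in B16. Fdft1, Lss and Insig1 were also called higher, by 2.85- to 3.69-fold. The cholesterol exporter Abca1 was lower in YUMM1.1 (1.81, 2.71 and 1.04 CPM, against 25.1, 24.0 and 24.2 CPM in B16), as was Acaca, which makes malonyl-CoA (log2 -1.06 ± 0.12, adjusted p = 3.15e-06; -0.984 and -0.998, not called, without YUMM1.1 library 2 and 3). The antioxidant list gave 9 higher and 8 lower of 32 tested. The glutathione transferase Gstm1 was at 6.25, 10.4 and 11.3 CPM in YUMM1.1 and 95.3, 80.3 and 92.9 CPM in B16, and Gsta1 at 0.124 CPM in YUMM1.1 and 8.995 CPM in B16, both of families with close copies. Ephx1, an epoxide hydrolase, was at 485 ± 8.90 CPM in YUMM1.1 and 156 ± 16.8 CPM in B16, and Akr1b8, an aldo-keto reductase, at 228 ± 40.3 CPM in YUMM1.1 and 47.8 ± 5.73 CPM in B16. Prdx1 and Nfe2l2, the factor NRF2, were not called.

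Hox genes, which record position along the body axis, were expressed at low levels in B16 and almost absent from YUMM1.1. Of 39 Hox genes 14 were tested, and 13 of these were lower in YUMM1.1 and 1 higher; the median log2 difference was -6.40, or -5.15 with genes without reads at their floor. Their summed level was 3.66 to 4.62 CPM in YUMM1.1 and 74.5 to 91.5 CPM in B16. Hoxa10 had 1 read in YUMM1.1 and 29.6, 35.1 and 30.7 CPM in B16, and Hoxa3 was at 0.0477, 0.282 and 0.165 CPM in YUMM1.1 and 9.87, 9.85 and 7.59 CPM in B16. The Hoxa cluster lies on chromosome 6. Hoxc13, which in skin belongs to the hair follicle, was the member on the YUMM1.1 side, with 153 reads in YUMM1.1 and 0 in B16. Imprinted genes gave 5 higher and 5 lower of 15 tested. Grb10, an inhibitor of insulin and growth factor receptors, was at 329.8, 247 and 333 CPM in YUMM1.1 and had 1 read in B16, and Plagl1, a zinc finger factor, was at 10.2, 10.3 and 9.27 CPM in YUMM1.1 and 247, 299.7 and 299 CPM in B16. Zrsr1 followed Grb10, with 945 reads in YUMM1.1 and 3 in B16, and Mest was lower in YUMM1.1 (log2 -1.70 ± 0.12). Of 22 Mage genes 4 were tested and Maged2, Magee1 and Magef1 were called higher, while Maged1 was not called (568 ± 21.8 CPM in YUMM1.1 and 491 ± 30.2 CPM in B16).

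Among common reference genes 2 of 15 were called higher and 1 lower. Actb was at 4812 ± 478 CPM in YUMM1.1 and 1478 ± 29.2 CPM in B16, a log2 difference of 1.70 ± 0.12, and Actg1 differed by 1.32 ± 0.10. Gusb, a lysosomal enzyme, was at 49.1 ± 9.70 CPM in YUMM1.1 and 246 ± 7.82 CPM in B16. Eef1a1, a translation factor, was at 6037 ± 554 CPM in YUMM1.1 and 8052 ± 164 CPM in B16 and was not called. Most of these genes had an adjusted p below 0.05 (13 of 15), so differences below 2-fold were detected even in this group.

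Many of the largest differences were genes silent in 1 line. Ecel1, an endopeptidase of neural cells, was at 5523, 4689 and 5674 CPM in YUMM1.1 and 0 in every B16 library, at least 29218-fold higher. Rassf4, a RAS-association protein, was at 516, 517 and 488 CPM in YUMM1.1, and Cavin3, a coat protein of caveolae, at 259, 404 and 352 CPM, both with 0 reads in B16. Further genes with 0 reads in B16 were the Notch-pathway ligand Dner (136 CPM in YUMM1.1), the kallikrein Klk9 (111 CPM), the neural crest factor Tfap2b (92.4 CPM), the aspartoacylase Aspa (86.0 CPM), the aldehyde dehydrogenase Aldh1a7 (85.8 CPM), Lingo3 (84.8 CPM) and the motor Myo5b (77.3 CPM). Klk9 lost its call without YUMM1.1 library 1, although its YUMM1.1 libraries were at 132, 57.5 and 143 CPM. In the other direction Ptgds, a prostaglandin D synthase known as a target of MITF, had 0 reads in YUMM1.1 and 1587, 1370.4 and 1246 CPM in B16, at least 26594-fold lower. Slc38a1, a glutamine transporter, had 0 reads in YUMM1.1 and 628, 661 and 637 CPM in B16. Also without reads in YUMM1.1 were Pianp (267 CPM in B16), Fkbp6 (154 CPM), the zinc finger factor Prdm16 (148 CPM), the gap junction gene Gjb2 (123 CPM) and Tmem51 (99.5 CPM), while Dnaic1, a dynein chain of cilia, and the gasdermin Gsdmc had 1 read each in YUMM1.1 and 276 and 208 CPM in B16.

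Whole chromosomes differed between the lines. Medians are given relative to that of all tested genes, with the SD that the 3 libraries of each line give, and with no test because genes of a chromosome are not replicates. Chromosome 15 was lowest in YUMM1.1, at -0.70 ± 0.06 over 511 genes, followed by chromosome 6 at -0.67 ± 0.03 over 654 genes. On chromosome 15 35.8% of tested genes were called lower and 12.7% higher, and on chromosome 6 37.6% lower and 12.997% higher, against 18.4% and 20.1% of all tested genes. Chromosomes 1 (-0.37) and 9 (-0.33) were lower by less. Chromosome 10 was highest, at 0.56 ± 0.05 over 648 genes, followed by the X chromosome (0.47), chromosome 18 (0.41), chromosome 14 (0.37) and chromosome 7 (0.32). Where the genes were limited to those averaging 20 CPM or more over the lines, the medians were -0.71 for chromosome 15, -0.64 for chromosome 6 and 0.58 for chromosome 10. Mitf, Met, Braf, Mcm2 and the Hoxa cluster lie on chromosome 6, and Myc, Sox10, Slc45a2 and Slc38a1 on chromosome 15. Akr1b8, called higher in YUMM1.1, lies on chromosome 6 as well. These genes were picked from those named above and do not stand for their chromosomes. Whether gene copy number differs was not tested.

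**Figure D5:**
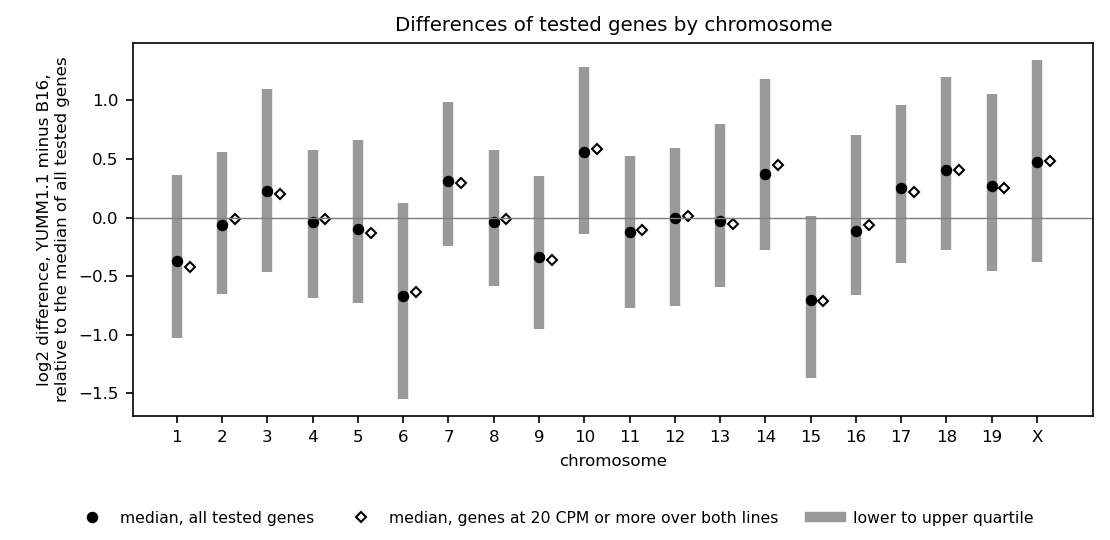
Log2 differences of tested genes by chromosome, YUMM1.1 minus B16 and relative to the median of all tested genes, with dots for the median, grey bars from the lower to the upper quartile and diamonds for the median of genes at 20 CPM or more over both lines. Chromosomes 15 and 6 lie lowest and chromosome 10 and the X highest, and the bars of all chromosomes overlap.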

How the data were processed

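RNA-seq read counts per gene were used as deposited: whole-number counts per Ensembl gene ID, 1 column per library, not normalized. The genome build is GRCm38, per the submitters' processing notes. No source used here gives the aligner, counter, annotation release or strand setting. Of 55416 IDs, 52135 matched a symbol in GENCODE M21 (GRCm38). Promoter sequences came from RefSeq (GRCm38.p6).

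The untreated libraries, 3 of YUMM1.1 and 3 of B16, were fitted alone in R 4.3.3 with edgeR 4.0.16 (filterByExpr at its defaults, TMM factors, robust quasi-likelihood F test), and p-values were adjusted by Benjamini-Hochberg over all 12850 tested genes. SE is the log2 difference divided by the square root of F. Separate cultures are not stated in the labels; the p-values thus reflect only how these libraries spread, which may be technical. Levels are CPM per gene, not per length, and are compared between lines only. A line with 0 reads was set to a floor of 3 counts over its libraries; for 1 to 3 reads a ratio has an exact 95% binomial interval. Intervals and floors cover counting error only.

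Named genes were the 15 largest called differences in each direction (at least 5 CPM in the higher line, no overlap between lines, a full symbol), for each of 41 lists the called members of smallest adjusted p, 2 per direction, and the member with the most CPM, and a fixed set (195 genes). Some genes that this rule selects are not reported here. The other genes named were chosen after their values were seen. Members and lists were chosen with earlier results of these data known. Of the 195 genes 25 overlap coding exons of another gene, and H2, Gbp, Klk and Gst genes have close copies, so their values are uncertain. Alternatives were RLE factors, library totals, other filters, DESeq2 1.42.0, limma-voom 3.58.1, the replicate number as a block, other thresholds, and leaving out each library.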

Additional observations from a re-analysis of the deposited data

How the results depend on the processing

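Of 4939 called genes the count was 4945 with RLE factors, 4662 with a filter at 1 CPM, 4849 with DESeq2, 4948 with limma-voom, 3835 with a test against 2-fold (glmTreat), 6095 with genes of few reads kept, and 4711 to 5245 without each library in turn. Without the fold condition 9211 genes passed, 4654 higher and 4557 lower. Library totals gave 2208 higher and 2889 lower, with Mmp14, Mdm2 and Klhl9 then under 2-fold and Ccnd2, Tead4 and Dusp4 called lower. The numbers did not pair the libraries (correlation of deviations -0.16, 0.00 and -0.08 for numbers 1 to 3); with the replicate block 4926 genes were called, 2556 higher and 2370 lower, 4884 of them called in both fits. Braf, Smad5, Acaca, Mif, Col1a1, Rab32, Mdm2, Klhl9 and Magef1 did not pass the test against 2-fold. Of 316 tested genes with such values, 12 changed sign in at least 1 setting, none of them called in the fit reported. With library totals the log2 difference was -0.069 for Irf1, -0.069 for Scd2, -0.12 for Eng, -0.16 for Prdx1, -0.12 for Id3, -0.071 for Slc2a1 and -0.0033 for Spry1. With genes of few reads kept it was 0.014 for Akt1, 0.021 for Top2a and 0.065 for Sox9. Sox9 was also at 0.010 with RLE factors, 0.021 with DESeq2, 0.017 with limma-voom and 0.050 with the replicate block. Over the fits without 1 library, values ran from -0.29 to 0.34 for Sox9, -0.24 to 0.080 for Akt1, -0.11 to 0.30 for Id3, -0.20 to 0.025 for Top2a, -0.055 to 0.10 for Prdx1, -0.26 to 0.068 for Pdgfra and -0.29 to 0.019 for Tap1. Of 82 counts of list members, 13 moved by over 1.5 times with genes of few reads kept and 5 with library totals. With genes of few reads kept, chromosome medians were -0.27 (1), -0.19 (2), 0.30 (3), -0.12 (4), -0.61 (6), -0.12 (8), -0.38 (9), 0.51 (10), -0.21 (11), 0.074 (13), 0.49 (14) and 0.56 (X). Leaving out each library in turn gave -0.093 to -0.056 for chromosome 2, -0.36 to -0.32 for chromosome 9 and -0.12 to -0.067 for chromosome 16. The cause of these changes was not tested. B16 depth limits statements on genes without reads in B16 to the floor of 3 counts.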

Other observations

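Several gene families outside the lists stood out and were grouped after their values were seen, so their counts are descriptions with no test of the family. Of 14 tested clustered histone genes, whose messenger RNAs mostly lack a poly(A) tail, 14 were called higher in YUMM1.1 with a median log2 difference of 3.25. They took 0.0208% to 0.0221% of the counts in the YUMM1.1 libraries and 0.0025% to 0.0031% in the B16 libraries. Hist1h1c, a linker histone, was at 82.0 CPM in YUMM1.1 and 8.12 CPM in B16. Whether the libraries were selected for poly(A) alike was not tested. Of 10 carbohydrate sulfotransferases, which add sulfate to glycans of the matrix and cell surface, 9 were called higher. Chst2 was at 38.1 CPM in YUMM1.1 and 0 CPM in B16, and Chst15 at 3.66 CPM in YUMM1.1 and 0 CPM in B16. Myosin light chains were called higher in 6 of 6, with Myl9, the smooth muscle form, at 2.63 CPM in YUMM1.1 and 0 CPM in B16. Annexins, which bind membranes in the presence of calcium, were higher in 7 of 9 and lower in 1. Anxa1 was at 3661 CPM in YUMM1.1 and 154 CPM in B16, and Anxa3 at 209 CPM in YUMM1.1 and 0.0620 CPM in B16.

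The IGF-binding proteins divided between the lines. Igfbp7 was at 669 CPM in YUMM1.1 and 0.282 CPM in B16, Igfbp3 at 579.7 CPM in YUMM1.1 and 0.630 CPM in B16, and Igfbp5 at 41.4 CPM in YUMM1.1 and 0.121 CPM in B16. Igfbp4 was below 1 CPM in YUMM1.1 and at 313 CPM in B16, and Igfbp6 at 0.0877 CPM in YUMM1.1 and 3.32 CPM in B16. Carbonic anhydrases were higher in 3 of 8 and lower in 5. Car14, a membrane-bound form, was at 0.0842 CPM in YUMM1.1 and 451 CPM in B16. Adenylate cyclases, which make the cyclic AMP that MC1R signals through, were higher in 2 of 7 and lower in 4, with Adcy2 at 0 CPM in YUMM1.1 and 7.19 CPM in B16 and Adcy1 at 65.7 CPM in YUMM1.1 and 0 CPM in B16. Of 6 T-box genes 3 were higher and 2 lower, with Tbx3 at 62.9 CPM in YUMM1.1 and 0 CPM in B16 and Tbx2 at 39.4 CPM in YUMM1.1 and 138 CPM in B16.

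Some neighbouring tested genes had few or no reads together in 1 line. Stretches were runs of at least 3 tested genes with at most 1 read each in that line. Genes not tested were passed over, also where they lie within a stretch, and read totals leave them out. The tested genes of a stretch passed the filter through the other line, and few reads are reached more easily at the lower B16 depth. How many stretches would be expected was not tested. In YUMM1.1, Hoxa9, Hoxa10, Hoxa11 and Hoxa11os (chr6:52223100-52249799, GRCm38) had 1 read in all, against 812 in B16, and Hoxd13, Hoxd3os1 and Hoxd4 (chr2:74668310-74729160) had 0, against 136 in B16. Zic5, Zic2 and their neighbours (chr14:122365239-122479852) had 0 reads in YUMM1.1 and 670 in B16, and the stretch from 4930455G09Rik to Kazn with Tmem51 (chr4:142017898-142239401) had 0 reads in YUMM1.1 and 2214 in B16. The stretch around Cdkn2a, from Gm12606 to Dmrta1 (chr4:89235699-89694772), had 12928 reads in YUMM1.1 and 0 in B16. On chromosome 1 the stretch from Alppl2 to Ecel1 (chr1:87086694-87156521) had 308232 reads in YUMM1.1 and 0 in B16, nearly all in YUMM1.1 from Ecel1. Klk10, Klk9 and Klk8 (chr7:43781035-43803826) had 11067 reads in YUMM1.1 and 0 in B16, and Mmp1b, Mmp3, Mmp1a and Mmp10 (chr9:7368239-7510240) had 4030 in YUMM1.1 and 0 in B16. Grb10, Cobl and Vstm2a (chr11:11930508-16427310) had 20014 reads in YUMM1.1 and 1 in B16. Whether these stretches are deleted or not transcribed was not tested.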
